A study of Mus musculus with 6 samples.

Results

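Espin and the other proteins that tie actin filaments into bundles were followed at the mRNA level in cells that had passed through narrow pores. The set holds 10 genes of the 55335 in the deposited count table: the espins Espn and Espnl, the fascin Fscn1, the plastins Pls1, Pls3 and Lcp1, the villin Vil1, the capping and bundling protein gene Eps8, and the alpha-actinins Actn1 and Actn4. They were found by Ensembl gene identifier, paired with symbols through the GENCODE M21 annotation, and chosen for what their proteins do. Wild-type mouse embryonic fibroblasts (MEF) were either parental cells (Ctrl) or cells collected after 15 h once they had crossed a transwell membrane with 3 μm pores (Confine). Both groups had the same genotype, and RNA was read from whole cultures. The table has 3 Ctrl and 3 Confine columns, but Confine replicate 1 equals Confine replicate 2 in 55335 of 55335 genes. The pair was counted once, as Confine replicate 2, so 3 Ctrl libraries were compared with 2 different Confine libraries.

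Actin filaments become stiff bundles when proteins with more than 1 actin-binding surface hold them side by side, and such bundles fill filopodia, microvilli and the stereocilia of hair cells. Fascin and espin pack filaments tightly and in parallel, plastins (fimbrins) also pack them closely, and alpha-actinin, a spaced crosslinker, is typical of stress fibers and focal adhesions. Villin bundles filaments in the microvilli of epithelia, and Lcp1 (L-plastin) is the plastin of blood cells. Espin was first known from the junctions between Sertoli cells and germ cells of the testis and from hair cell stereocilia. Fibroblasts are known mainly for fascin, T-plastin (Pls3) and the non-muscle alpha-actinins.

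Total counts ranged from 22287210 to 27853805 in Ctrl and were 32537550 and 27290138 in Confine. Levels are given as CPM (counts scaled to a common library size) normalized by TMM, which scales libraries so that most genes keep the same level, and, wherever 2 genes are compared in level, as CPM per kb of the gene's joined exons. In these libraries 3 counts correspond to 0.101 to 0.128 CPM. Of the 15881 genes with enough counts to be tested with edgeR's quasi-likelihood test, 3654 (23.0%) had an adjusted p under 0.05, which is what "called" means here, with 2035 (12.8%) higher and 1619 (10.2%) lower in Confine. Higher genes made up 55.7% of the calls with TMM and 34.0% with library size alone, a scaling that moved the median log2 fold change of tested genes to -0.21. Without Confine replicate 2 there were 2256 calls (13.5%) and without Confine replicate 3 there were 2054 (12.4%). Each of these fits leaves a single Confine library, so its p-values hold no spread between Confine libraries. The sources used here do not say whether replicates came from separate cultures. The p-values thus measure only the spread between these libraries, which may be technical and which edgeR estimates in part from other genes. Of the 10 fibroblast markers 7 were tested. Col1a1, Col3a1, Fn1, Vim and Pdgfra were called higher in Confine, while Col1a2 (log2 fold change 0.24) and Pdgfrb (-0.36) were not called. No library held more than 2 counts of Thy1 or Lum, or more than 27 of Dcn.

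Espn rose from almost no reads to a low level. It had 10, 4 and 4 counts in Ctrl and 43 and 63 counts in Confine replicates 2 and 3. In CPM per kb of exon the Ctrl libraries stood at 0.0418, 0.0183 and 0.0206, and the Confine libraries at 0.176 and 0.302. The lowest Confine library was thus above the highest Ctrl library, and their exact Poisson 95% intervals did not meet either, with 31.1 to 57.9 counts against 4.80 to 18.4. The log2 fold change was 3.10 (SE 0.53, 95% interval 1.99 to 4.21, edgeR adjusted p = 0.00026), a fold of 8.57 with an interval of 3.97 to 18.5. The interval is wide, and the Ctrl value rests on only 18 reads over 3 libraries. The study chose Espn from these same libraries as a gene that was upregulated, so its direction here is not independent evidence. Apart from these libraries, the study reported verifying Espn by real-time quantitative PCR, with technical replicates. Poisson intervals cover counting error only, because PCR copies of 1 molecule were not told apart. In whole cultures a change in the number of cells that express a gene and a change in RNA per cell cannot be told apart.

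Even after the rise Espn was a scarce transcript. Its level per kb exceeded that of 1.66%, 0.775% and 0.807% of tested genes in the Ctrl libraries and of 8.18% and 12.0% in the Confine libraries. By size of log2 fold change it was number 177 of the 2035 genes called higher. Espn was called under each other scaling, tool, block and left-out Ctrl library that kept it in the test. Over all alternatives its log2 fold changes ran from 2.66 without Confine replicate 3, which leaves 1 Confine library, to 3.58 without Ctrl replicate 1. A filter that asked for 10 counts in every library removed Espn and left no value for it.

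Espn lies on the minus strand of mouse chr4:152120331-152152371 (GRCm38, identifier ENSMUSG00000028943.18), where GENCODE M21 lists 20 transcripts. Its exons total 8272 bp, and they overlap no exon of another annotated gene. RefSeq gives Espn 3 transcript starts. The counts are per gene and so cannot say which start or isoform was used. The 250 bases upstream of each start are shown because Espn is the member that was called, with those of Fscn1, the member with the highest level per kb, beside them. All are GRCm38.p6 sequence from RefSeq, written 5′ to 3′ along the gene's own strand up to the base before the start. Capitals mark GGGCGG, the core of the GC box, in either orientation.
Espn, chr4:152152390-152152639, minus strand: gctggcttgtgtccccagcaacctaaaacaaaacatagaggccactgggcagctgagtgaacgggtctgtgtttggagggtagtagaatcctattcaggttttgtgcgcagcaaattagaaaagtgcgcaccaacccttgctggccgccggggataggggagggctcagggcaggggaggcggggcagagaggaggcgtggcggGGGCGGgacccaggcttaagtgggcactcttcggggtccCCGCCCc
Espn, chr4:152136326-152136575, minus strand: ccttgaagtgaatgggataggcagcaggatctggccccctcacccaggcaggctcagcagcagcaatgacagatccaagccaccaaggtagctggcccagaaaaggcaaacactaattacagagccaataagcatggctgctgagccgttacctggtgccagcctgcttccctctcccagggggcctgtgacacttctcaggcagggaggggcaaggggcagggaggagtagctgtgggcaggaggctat
Espn, chr4:152128926-152129175, minus strand: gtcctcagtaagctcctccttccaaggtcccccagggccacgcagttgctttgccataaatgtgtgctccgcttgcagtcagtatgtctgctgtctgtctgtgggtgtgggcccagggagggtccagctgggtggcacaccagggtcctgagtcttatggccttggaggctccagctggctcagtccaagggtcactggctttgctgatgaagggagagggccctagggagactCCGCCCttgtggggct
Fscn1, chr5:142960105-142960354, plus strand: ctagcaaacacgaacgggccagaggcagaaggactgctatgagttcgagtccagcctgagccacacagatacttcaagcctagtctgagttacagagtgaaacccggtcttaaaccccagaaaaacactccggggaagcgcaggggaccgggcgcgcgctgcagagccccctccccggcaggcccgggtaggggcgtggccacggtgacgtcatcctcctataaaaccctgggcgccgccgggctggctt
GGGCGG was present in 2 of the 3 Espn windows, at -46 and -7 from the outermost start and at -16 from the innermost one, and in 32.7% of all 32851 RefSeq windows of this length. In Fscn1 it was absent, and TATAA lay at -31, a motif found in 22.8% of all windows and in none of the Espn windows. ACGTG (16.6% of all windows), TGACTCA (4.46%) and GGAATG (12.6%), searched on both strands, matched none of the 4 windows shown. Over the 9 members with RefSeq entries, which have 14 windows in all, GGGCGG occurred in 7 windows of 6 genes. GC content was 61.6%, 59.2% and 60.8% in the Espn windows and 62.4% in that of Fscn1. A match describes the letters of the window and not binding.

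Espnl, the espin-like gene, was not called. It had 4, 18 and 5 counts in Ctrl and 2 and 12 in Confine, so that the groups overlapped. Its log2 fold change was -0.38 (SE 0.85, 95% interval -2.16 to 1.40, edgeR adjusted p = 0.80). At this depth a change of up to 2.65-fold upward or to 0.224 of the Ctrl level lies within the interval, and the log2 fold change was 0.47 without Confine replicate 2, where its sign turned, and -2.27 without replicate 3. Espnl lies at chr1:91322075-91348306 on the plus strand, with 2 transcripts and no overlapping exon. Espnl was above Espn in level in 2 of the 3 Ctrl libraries, at 0.125 and 0.0391 CPM per kb in replicates 2 and 3, and below it in both Confine libraries, at 0.0124 and 0.0875.

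Fascin had the highest level per kb of the 10 genes. Fscn1 stood at 93.1, 104 and 74.6 CPM per kb in Ctrl and at 110 and 89.0 in Confine, and the groups overlapped. Its level exceeded that of 94.7% to 96.5% of tested genes in every library. The log2 fold change was 0.13 (SE 0.19, 95% interval -0.27 to 0.53, edgeR adjusted p = 0.68), so a rise above 1.45-fold lies outside the interval. Fscn1 lies on the plus strand at chr5:142960343-142973185. In Ctrl its mean level was 3373 times that of Espn and in Confine 415 times, folds that depend on the length used. Per kb of the longest transcript, Fscn1 and Espn stood at 102 and 0.0481 CPM in Ctrl and at 112 and 0.428 in Confine.

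The plastins differed from each other mostly in level. Pls3, the T-plastin of solid tissues, stood at 26.5, 19.7 and 25.2 CPM per kb in Ctrl and at 27.7 and 25.4 in Confine, with a log2 fold change of 0.16 (SE 0.19, interval -0.23 to 0.55, edgeR adjusted p = 0.60). Pls1, the plastin of intestinal and hair cell protrusions, stood at 1.70, 1.33 and 2.48 in Ctrl and at 1.29 and 1.34 in Confine. Both Confine values of Pls1 were near the lowest Ctrl library, and its log2 fold change of -0.48 (SE 0.28, interval -1.06 to 0.11) did not pass the test (edgeR adjusted p = 0.24). Pls3 (X chromosome, chrX:75785654-75875182) and Pls1 (chr9:95752642-95845311) both lie on the minus strand and share exons with no other gene.

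Lcp1, the leukocyte plastin, and Vil1, the villin gene, had too few reads for the test. Lcp1 had 11, 4 and 2 counts in Ctrl and 1 and 0 in Confine, which is 17 against 1 in all. Its Confine libraries lay below each Ctrl library, and the pooled normalized level was 11.8 times higher in Ctrl with a counting interval of 1.85 to 493. The counting intervals given here pool reads and leave out the spread between libraries, and 11 of the 17 Ctrl reads came from replicate 1. Lcp1 lies on the plus strand at chr14:75131101-75230842, and the opposite-strand genes that share its exons had 0 counts. With no filter on low counts it was not called (log2 fold change -3.25, edgeR adjusted p = 0.18). Vil1 had 10, 3 and 1 counts in Ctrl and 1 and 3 in Confine, with overlapping groups, a pooled ratio of 2.43 in favor of Ctrl (counting interval 0.763 to 10.1) and an adjusted p of 0.67 without the filter by the same edgeR test. The Vil1 locus (chr1:74409376-74435559, plus strand) shares 49 bp of exon with Usp37 on the opposite strand, which had 2794 to 4265 counts per library. As the strand setting of the counting is not given in the sources used here, the few Vil1 reads cannot be told apart from Usp37 reads. The 3 scarce members Lcp1, Vil1 and Espnl thus stayed at 18 counts or fewer in every library, while Espn reached 63.

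Eps8 caps the barbed ends of filaments and bundles them in filopodia and stereocilia. It stood at 2.39, 3.54 and 2.71 CPM per kb in Ctrl and at 3.58 and 2.78 in Confine. These groups overlapped, and the log2 fold change was 0.14 (SE 0.20, interval -0.29 to 0.57, edgeR adjusted p = 0.67). Eps8 (chr6:137477245-137654876, minus strand) has 13 transcripts and joined exons of 12355 bp against 4567 bp for its longest transcript, so its level per kb depends on the length used.

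The alpha-actinins had log2 fold changes of opposite sign, and neither passed the test. Actn1 stood at 9.82, 6.98 and 8.24 CPM per kb in Ctrl and at 10.2 and 11.1 in Confine. Its groups did not overlap, but the log2 fold change of 0.35 (SE 0.19, interval -0.05 to 0.75) had an edgeR adjusted p of 0.21. Actn4, the more abundant of the pair, stood at 61.4, 44.4 and 52.3 in Ctrl and at 44.6 and 44.2 in Confine, with a log2 fold change of -0.25 (SE 0.19, interval -0.64 to 0.15, edgeR adjusted p = 0.38). Both genes lie on minus strands, Actn1 at chr12:80167547-80260371 and Actn4 at chr7:28893248-28962340. Annotated opposite-strand genes share exon sequence with them (Gm47766 and Gm47767 with Actn1, Capn12 with Actn4), and these had at most 35 counts in any library.

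**Figure D1:**
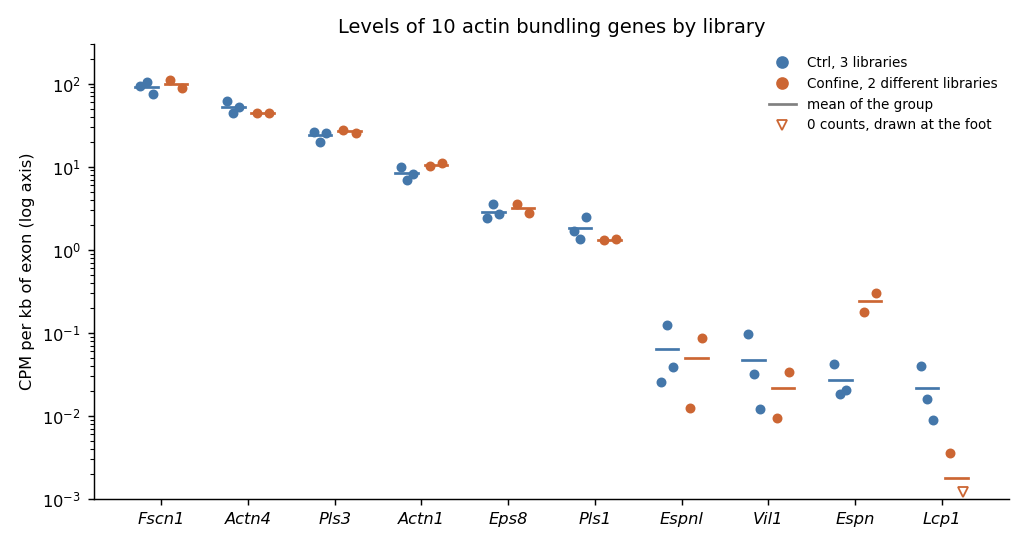
Level of each of the 10 genes in CPM per kb of exon, on a log axis, in 3 Ctrl libraries (blue points) and 2 different Confine libraries (orange points), with short lines at the group means and an open triangle for the 1 library with 0 counts of Lcp1. Espn moves from among the 4 scarcest genes to between Pls1 and Espnl, at 0.176 and 0.302 in Confine, while the 6 abundant genes keep their order.

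In Ctrl the order of mean levels was Fscn1, Actn4, Pls3, Actn1, Eps8, Pls1, Espnl, Vil1, Espn and Lcp1. The library ranges of neighbours in this order were apart down to Actn1 over Eps8. Eps8 and Pls1 overlapped between libraries although Eps8 was above Pls1 within 3 of 3, and the last 4 genes overlapped from each one to the next. In Confine the same 6 genes led in the same order, and Espn came next at 0.239 ± 0.090 CPM per kb (SD, n = 2), clear of Espnl at 0.050 ± 0.053. The summed level of the 10 genes was 180 ± 15 CPM per kb (SD, n = 3) in Ctrl and 186 ± 16 (n = 2) in Confine, so the sum moved by less than its spread. With the longest transcript in place of the joined exons, Fscn1 and Actn4 overlapped in Ctrl and Espn was last there, and Espn was again number 7 in Confine. With the median transcript length Actn1 came above Pls3 in both groups. Espn was then number 9 in Ctrl, above Espnl, and number 7 in Confine.

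Espn made up 0.0214%, 0.0101% and 0.0124% of the summed level of the 10 genes in Ctrl and 0.0891% and 0.174% in Confine. Fscn1 held 45.0% to 57.8% over the 5 libraries, Actn4 22.6% to 31.6% and Pls3 10.9% to 15.2%. The rise of the Espn share, from 0.0147% ± 0.0060 (SD, n = 3) to 0.131% ± 0.060 (n = 2), had a two-sided exact permutation p of 0.1. With 3 against 2 libraries there are 10 splits, so 0.1 is the smallest p this design allows and no such comparison can pass 0.05. The share also restates the Espn values for whose rise the study chose the gene. The difference of 0.117 percentage points became 0.0744 without Confine replicate 3, 0.160 with the longest transcript and 0.227 with no length scaling.

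**Figure D2:**
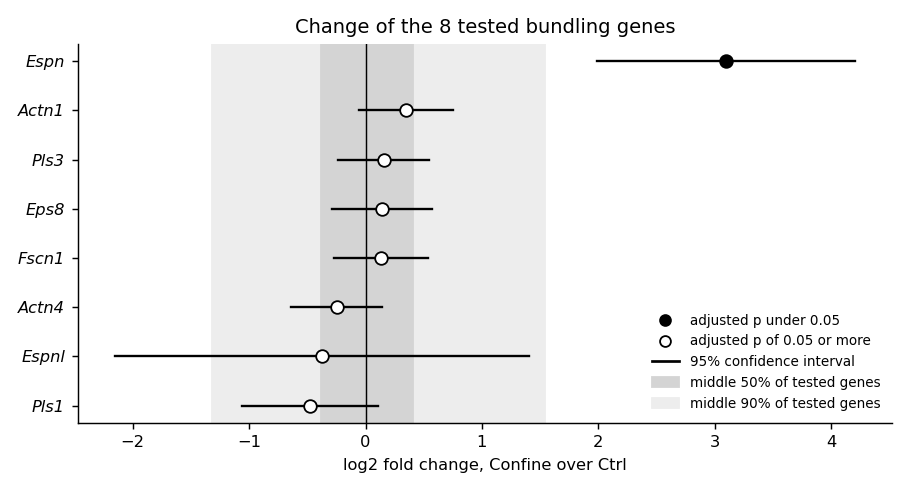
Log2 fold change of Confine over Ctrl for the 8 tested genes (points) with 95% confidence intervals (bars), over the middle 50% and 90% of all tested genes (grey bands, -0.38 to 0.40 and -1.32 to 1.54). Espn at 3.10 lies beyond the wider band, and the intervals of the other 7 genes include 0.

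Of the 8 tested members 1 was called, Espn, against 23.0% of all tested genes. With an added cutoff of 1.5 on the absolute log2 fold change, 1 of 8 was called again, against 8.00% of all tested genes. The median log2 fold change was 0.14 over the 8 members and -0.0021 over all tested genes. Because Espn passed the filter on low counts through the Confine group, no weight is placed on the count itself. Of the 7 others, Fscn1, Pls3 and Eps8 had log2 fold changes between 0.13 and 0.16 that fell just below 0 under library size alone, at -0.08, -0.05 and -0.07, where Espn remained called at 2.90.

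Set against each other bundler within the same library, Espn gained in each pair. The measure is the log2 ratio of Espn to the other gene after 0.5 CPM was added to each, without length scaling. Against Fscn1 it was -8.38, -8.92 and -8.39 in Ctrl and -7.40 and -6.48 in Confine. Against Espnl it was 0.41, -0.86 and -0.09 in Ctrl and 1.78 and 1.62 in Confine. Differences between the group means ran from 1.40 against Actn1 to 2.18 against Lcp1, with a median of 1.88 over the 9 pairs. The Confine libraries lay above the Ctrl libraries in 9 of 9 pairs, which share the same Espn values. Since the study chose Espn for its rise in these libraries, this separation is no further evidence of that rise. Each pair had a two-sided exact permutation p of 0.1, the smallest possible, and 0.1 after Benjamini-Hochberg adjustment over the 9 pairs. The added constant lowers these differences, since Espn in Ctrl was below 0.5 CPM: the median was 2.92 with 0.1 CPM added and 1.34 with 1 CPM.

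**Figure D3:**
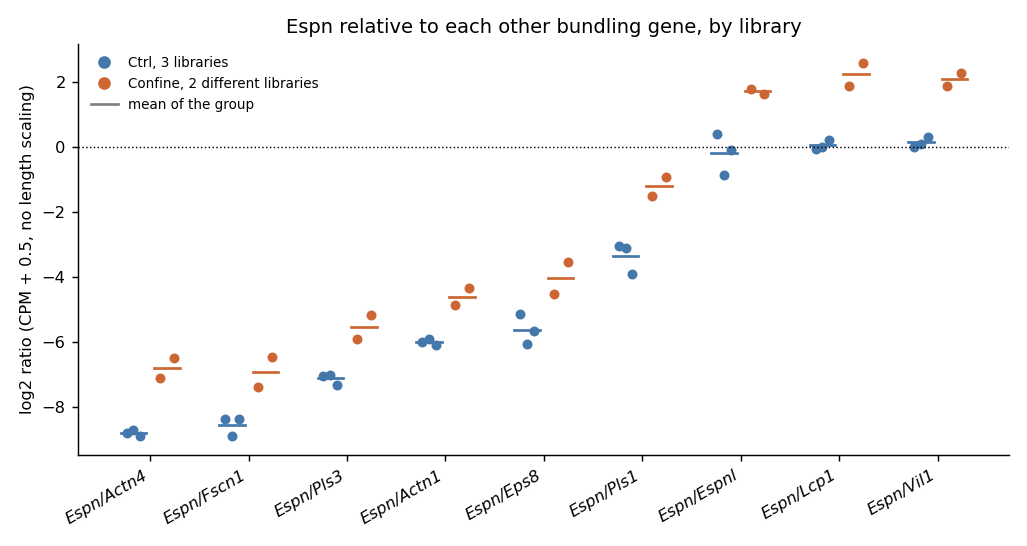
Log2 ratio of Espn to each other bundling gene in each library, from CPM plus 0.5 without length scaling, in Ctrl (blue) and Confine (orange), with lines at the group means. In each of the 9 pairs, which share the same Espn values, both Confine points lie above the Ctrl points. The ratios to Espnl, Lcp1 and Vil1 lie between -0.86 and 0.41 in Ctrl and between 1.62 and 2.59 in Confine. In Ctrl the added 0.5 CPM exceeds the levels of Espn, Lcp1 and Vil1, which draws the ratios to Lcp1 and Vil1 toward 0.

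Other bundlers and crosslinkers moved in both directions. Of 35 such genes 26 were tested, and 2 rose and 4 fell, against 12.8% and 10.2% of all tested genes, with a median log2 fold change of 0.03. Tagln2 (transgelin 2) rose by a log2 fold change of 0.54 (SE 0.18, edgeR adjusted p = 0.036). Gas2, which links actin to microtubules, fell from 167 ± 25 CPM (SD, n = 3) to 52.3 ± 2.5 (n = 2), a log2 fold change of -1.68 (SE 0.20, edgeR adjusted p = 4.9e-06). Fam107b (-1.19), Nexn (nexilin, -1.07) and Cnn3 (calponin 3, -0.55) also fell by edgeR's test. Among relatives of the members, Vill had 59 to 107 counts per library, Avil 31 to 62 and Eps8l1 5 to 20, and none of these was called. Actn2 and Eps8l3 had 0 counts throughout, and Fscn2, Fscn3, Actn3 and Eps8l2 had at most 15 in any library. Without either Confine library 4 of these 6 calls stayed, those of Gas2, Fam107b and Nexn among them.

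Genes of filopodia formation were all tested, and 3 of 25 rose and 2 fell, against 12.8% and 10.2% of all tested genes, with a median log2 fold change of 0.12. Mtss1, a membrane-bending protein with an actin-binding end, rose from 2.82 ± 0.35 CPM (SD, n = 3) to 12.7 ± 1.3 (n = 2), a log2 fold change of 2.17 (SE 0.24, edgeR adjusted p = 2.5e-06). Raph1 (lamellipodin, a partner of Ena/VASP proteins) rose by 1.67 (SE 0.20, adjusted p = 4.7e-06) and the formin Fmnl2 by 0.67 (SE 0.18, adjusted p = 0.011) in the same edgeR fit. The formin Diaph3 fell by 1.39 on the log2 scale (SE 0.24, edgeR adjusted p = 0.00031). Profilin 1 (Pfn1), which feeds actin monomers to formins, was 102 ± 51 CPM in Ctrl (SD, n = 3), with 4635, 2145 and 1495 counts, and 49.0 ± 2.4 in Confine (n = 2), a log2 fold change of -1.05 (SE 0.29, adjusted p = 0.012). Without Confine replicate 2 the calls were Mtss1, Raph1 and Diaph3, 3 in place of 5, and without Confine replicate 3 that of Fmnl2 was kept as well.

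Genes of stereocilia and microvilli, the structures espin is best known from, were in part at or near 0 counts. Of 23 genes 11 were tested and 6 had 0 counts in every library, among them Myo3a and Myo3b, the motors that carry espins in hair cells. Over all 55335 genes, 15881 were tested and 27065 had any reads. Genes without reads were thus less frequent in this list than over all genes. Triobp, whose protein bundles actin at the stereocilia rootlet and along stress fibers, rose from 29.2 ± 2.7 CPM (SD, n = 3) to 131 ± 16 (n = 2), a log2 fold change of 2.17 (SE 0.18, edgeR adjusted p = 9.2e-08). The scaffold gene Whrn rose by 1.05 (SE 0.23, adjusted p = 0.0025) and moesin (Msn), a membrane linker, by 0.75 (SE 0.17, adjusted p = 0.0040), while its relative radixin (Rdx) fell by 0.64 (SE 0.18, adjusted p = 0.016) in edgeR's test. These 3 that rose and 1 that fell among 11 stand against 12.8% and 10.2% of all tested genes, and the median log2 fold change of the 11 was -0.20. Triobp and Msn were called without either Confine library, while the call of Whrn was lost without Confine replicate 2 and that of Rdx without either, which leaves 2 calls without replicate 2 and 3 without replicate 3.

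Of the actins themselves, the cytoplasmic isoforms were not called. Actb (log2 fold change -0.01, 95% interval -0.39 to 0.37) and Actg1 (0.04, interval -0.36 to 0.45) had 554530 to 793808 and 48167 to 78211 counts. The smooth muscle actin Acta2 had a log2 fold change of -0.59 (SE 0.21) that missed the threshold (edgeR adjusted p = 0.056), although its groups did not overlap. Actg2 had -0.36 (adjusted p = 0.42, edgeR), and Actc1 had 0 counts. Acta1, the skeletal muscle actin, had 63, 30 and 27 counts in Ctrl and 126 and 64 in Confine and was the 1 of 5 tested isoforms that was called, with a log2 fold change of 1.19 (SE 0.37, edgeR adjusted p = 0.028). That call was lost without Confine replicate 2.

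**Figure D4:**
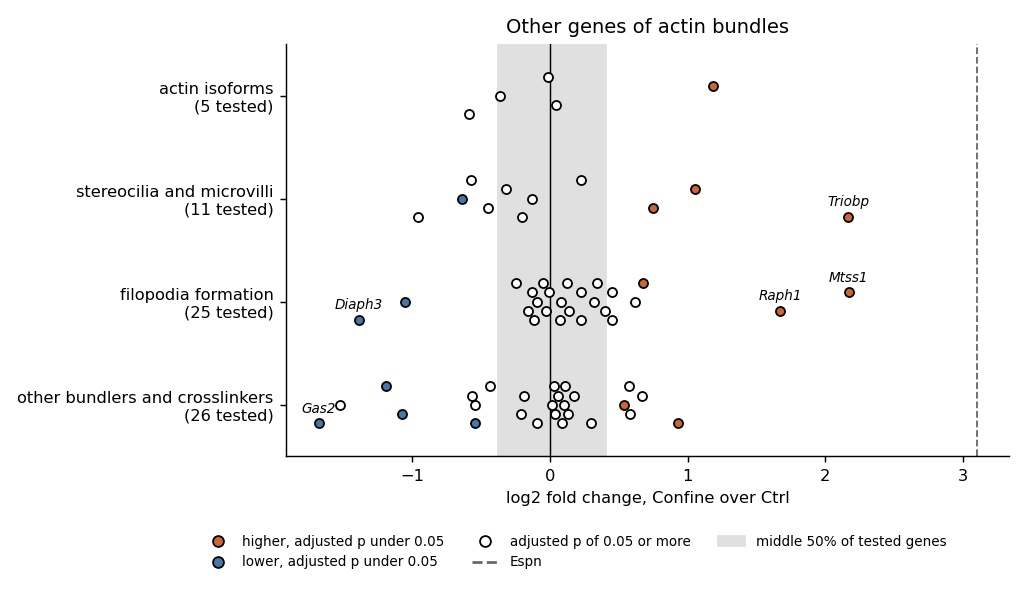
Log2 fold change of Confine over Ctrl for each tested gene of 4 lists (points, spread vertically for legibility), orange where higher and blue where lower at an adjusted p under 0.05 and white otherwise, with the middle 50% of all tested genes in grey. The dashed line marks Espn at 3.10, to the right of each gene in the lists, of which Mtss1 and Triobp come nearest at 2.17.

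The genes around Espn were not called in edgeR's test. Of 10 annotated genes within 100 kb, 6 were tested and 0 passed, against 23.0% of all tested genes. With 6 genes no weight is placed on this count. In edgeR's test 2 had an unadjusted p under 0.05, and 1, Acot7, was called by DESeq2 and by limma-voom. Tnfrsf25, a death receptor gene 212 bp away, had a log2 fold change of -0.39 (SE 0.33, adjusted p = 0.44, edgeR). Plekhg5, 4931 bp away, had -0.46 (SE 0.19, edgeR adjusted p = 0.092), and Acot7, an acyl-CoA thioesterase gene 25763 bp away, had 0.50 (SE 0.18, adjusted p = 0.056). These were the pair with an unadjusted p under 0.05. The others were Zbtb48 (-0.18), Nol9 (-0.48) and the pseudogene Gm13077 (-0.40). Hes2, 6496 bp away, had 0 counts in every library.

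The genes most like Espn over the 5 libraries were taken as those with the smallest root mean square difference in centred log2 CPM. They were Gm10359 (0.192), Lims2 (0.200), Gm12671 (0.208), Mef2b (0.212) and Gm37131 (0.222). Lims2, which encodes the focal adhesion protein PINCH2, had 208, 110 and 105 counts in Ctrl and 1138 and 1107 in Confine. Mef2b, a MADS-box transcription factor gene, had 16, 7 and 5 in Ctrl and 50 and 72 in Confine. Like Espn, both had their highest Ctrl value in replicate 1, a likeness that is part of how they were chosen. Gm10359 and Gm12671 are annotated as processed pseudogenes and Gm37131 as a locus to be checked experimentally, and pseudogene values are uncertain because reads may come from near-identical copies.

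Markers of the cell types in which espin and the other restricted bundlers are usually found were absent in part, and each list also held genes with reads. Beside the counts below, 12.8% of all tested genes rose and 10.2% fell, and 27065 of the 55335 genes in the table had any reads. Of 8 hair cell markers 6 had 0 counts in every library, Pou4f3 and Atoh1 among them, and the summed level of 13.4 to 19.2 CPM in Ctrl and 27.1 to 27.7 in Confine was mainly that of Myo6, a myosin that many cells express, which rose (log2 fold change 0.80, edgeR adjusted p = 0.0057). Of 8 Sertoli markers 3 were tested. Dmrt1 and Cldn11 had 0 counts and Amh at most 3, while Sox9 (0.97) and Inha (1.91) rose and the sum went from between 63.5 and 76.7 to between 105 and 126 CPM. Rhox5 was tested, had 565 to 739 counts per library and was not called (-0.09). Of 12 leukocyte markers 7 were tested, 2 rose (Cd68, 2.67, and Csf1r, 1.45) and 3 fell (Lyz2, -2.64, Cd74, -1.64, and Coro1a, -1.39). Their sum was 22.6 to 27.6 CPM in Ctrl and 24.6 to 33.4 in Confine. Cd53 and Fcer1g were tested but not called, with 3 to 24 and 1 to 20 counts per library. Ptprc, Tyrobp and Cd52 had at most 2 counts in any library. Of 10 epithelial markers 1 was tested, Krt19, a simple-epithelium keratin, which rose from 4, 7 and 5 counts to 114 and 204 (log2 fold change 4.84, edgeR adjusted p = 2.6e-07). Epcam and Krt18 had 0 counts, Cdh1 at most 1, Ovol1 at most 5 and Krt8 at most 17. The sum was 0.340 to 0.491 CPM in Ctrl and 4.09 to 8.89 in Confine. The part of these markers in the change of Espn was not tested.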

How the data were processed

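Poly(A)-selected, strand-marked RNA-seq libraries of MEF were read as the raw counts per gene that the authors deposited, without normalization. Per the labels' processing notes the tools were Trim Galore 0.6.10, HISAT2 2.1.0, SAMtools 1.5 and featureCounts, with the mm10 build; the annotation, strand setting and treatment of multiply mapped reads are not given in the sources used here, and these could move reads between overlapping or near-identical genes. Of 55335 identifiers, 55154 matched GENCODE M21 without version. Columns not used numbered 0, apart from the repeated Confine column, which was counted once.

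Counts of 5 libraries were filtered by filterByExpr, scaled by TMM and fitted in edgeR 4.0.16 (R 4.3.3) for quasi-likelihood tests, with Benjamini-Hochberg adjustment over 15881 genes. Fits had 3 residual degrees of freedom. The test checked on simulated counts of this comparison (15473 genes, 200 changed) recovered 93.5% of changed genes. DESeq2 1.42.0, limma-voom (limma 3.58.1), other scalings and filters, a replicate block and left-out libraries were alternatives. Ratios and shares were compared by exact permutation over libraries. A floor of 3 counts was taken as the limit of a count of 0, and intervals are at 95%.

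Members and lists were chosen with earlier results of these data known. Named were the 10 members, at most 4 called genes per list and direction with the largest change, each actin isoform, the 5 genes most like Espn, and its tested neighbours within 100 kb. A called gene of the list of other bundlers is counted but not reported here by name. Other genes named for their counts (relatives of the members, markers, Hes2) were chosen after their values were seen.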

Additional observations from a re-analysis of the deposited data

How the results depend on the processing

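Espn was called under each alternative that could test it and kept both different Confine libraries (other scalings, no filter, DESeq2, limma-voom, the replicate block, the identical columns counted as 2 samples, and each left-out Ctrl library). Its log2 fold change was 2.66 to 3.58 over these and over the fits that left 1 Confine library. The count of members called was 1 throughout except with at least 10 counts in every library, when it was 0 because Espn was removed. Over left-out libraries this count ranged from 1 to 1, calls over all genes from 2054 to 4426, the gain in Espn share from 0.0744 to 0.159 percentage points, and the median gain in Espn ratios from 1.65 to 2.095. With the cutoff of 1.5 on the absolute log2 fold change 1271 genes were called in place of 3654. The gain in Espn share was 0.160 percentage points with the longest transcript and 0.227 with no length, and the median ratio gain was 2.92 with 0.1 CPM added and 1.34 with 1 CPM. In the lists, chosen for this check after seeing the data, calls over left-out Confine libraries ranged from 4 to 4 for other bundlers, 3 to 4 for filopodia formation, 2 to 3 for stereocilia and microvilli and 0 to 1 for actin isoforms.

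Signs turned only in members that did not pass the test: under library size alone for Fscn1 (-0.080), Pls3 (-0.049) and Eps8 (-0.070), and over left-out libraries, where Fscn1 ranged from -0.023 to 0.27, Eps8 from -0.047 to 0.32 and Espnl from -2.27 to 0.47. The causes were not tested. Deviations of same-numbered libraries correlated at -0.053 or 0.052 across 15881 genes with the repeated library as replicate 2 or 1. These values show no sign of pairing by replicate number. They rest on 1 difference between Confine libraries, so they cannot exclude it. With the replicate block calls over all genes were 2528 or 4933, Espn was 3.54 or 2.83, and Espnl turned to 0.40 with the repeated library as replicate 1. With 1 residual degree of freedom the block p-values rest on spread shared between genes. Depth limits Espn, Espnl, Lcp1 and Vil1, whose Ctrl libraries held 18 counts or fewer.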
